A study of Homo sapiens with 9 samples.

Results

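The collagen, laminin and integrin genes are the genes of the extracellular matrix scaffold and of its main cell surface receptors. They were taken as every listed gene whose symbol is that of a collagen chain, a laminin chain or an integrin, with antisense and pseudogene symbols left out. Of 32906 listed genes, 81 qualified. These are 41 collagen chains, 12 laminin chains, 25 integrin subunits and 3 genes with an integrin name that encode no subunit (ITGB1BP2, ITGB3BP and ITGBL1). ITGB1P1 and ITGB1BP1 also carry such names and fell out by the ending of their symbols.

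The cells were Huh7, a widely used human liver cancer line, kept in DMEM with serum and given siRNA for 48 hours. Scramble cells received a control siRNA, and Si-KDM4C#1 and Si-KDM4C#2 cells received different siRNAs against KDM4C, a demethylase of histone H3 lysine residues. There were 3 libraries per group, so all groups were transfected and all came from 1 line. The sources used here do not say whether the 3 libraries of a group came from separate cultures, so p-values measure only the spread between these libraries.

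Expression was given in FPKM, fragments scaled to exon length and library total. KDM4C, the target, was at 4.69 ± 0.167 FPKM (SD, n = 3) in Scramble, 1.14 ± 0.0395 under Si-KDM4C#1 and 0.287 ± 0.0535 under Si-KDM4C#2. KDM4B, a paralog, was at 6.28 ± 0.34, 5.77 ± 0.633 and 1.17 ± 0.0814 FPKM, so it was lower with Si-KDM4C#2 (log2 fold change -1.74, adjusted p = 1.43e-07, limma) and not called with Si-KDM4C#1 (-0.11, adjusted p = 0.24). Recovered totals ran from 14597503 to 18058558 fragments per library, at which 3 fragments equal 0.166 to 0.206 FPKM at an exon length of 1 kb (counting error only). Of 12 hepatocyte markers 9 were listed, AFP and APOA1 among them, and all 9 stayed under 1 FPKM in every library, so the defining hepatocyte markers are near 0 and Huh7 is given as the labels name it. The epithelial keratins KRT8 and KRT18 lay between 95.5 and 205 FPKM, while the epithelial markers KRT19 and CDH1 did not exceed 0.3 and 0.0322 FPKM in any library. CLDN1, also a listed epithelial marker, ran from 1.95 to 2.11 FPKM in Scramble, 5.91 to 6.99 with Si-KDM4C#1 and 1.73 to 2.12 with Si-KDM4C#2. The summed level of the listed endothelial markers stayed at or under 0.935 FPKM in every library, and that of the leukocyte markers at or under 0.57. PTPRC was at 0 in all Scramble libraries.

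Collagens are trimers of alpha chains wound into a triple helix. Fibrillar collagens form the fibers of connective tissue, type IV collagen forms the sheet of basement membranes and type VI collagen forms beaded filaments beside them. Laminins are trimers of 1 alpha, 1 beta and 1 gamma chain that polymerize in basement membranes, and integrins are heterodimers of 1 alpha and 1 beta subunit that bind these proteins and link them to the actin or keratin cytoskeleton. Since each molecule needs its partner chains, the levels of partners are given together below.

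Type IV collagen genes lie in pairs that are transcribed away from each other, so that both genes of a pair start within a short shared stretch. The RefSeq starts of COL4A1 and COL4A2 are 127 bases apart and those of COL4A5 and COL4A6 380 bases apart. For COL4A6 the first of 2 listed starts was used, here and in the sequence below. These stretches are shown because the genes of each pair are compared with each other below. The sequences before the starts of LAMB3 and COL15A1 are shown because these genes had the lowest values relative to Scramble among the laminins and collagens that passed the expression limit described below. All are from RefSeq promoter windows of build GRCh38.p14, written along the strand of the named gene, and capitals mark the motifs searched on both strands, CCAAT and the GC box GGGCGG.
COL4A2, 126 bases between both starts, chr13:110307158-110307283, plus strand: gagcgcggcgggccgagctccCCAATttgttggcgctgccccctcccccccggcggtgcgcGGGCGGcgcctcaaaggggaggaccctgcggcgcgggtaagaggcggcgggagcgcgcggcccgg
COL4A6, 250 bases before its start, chrX:108439459-108439708, minus strand: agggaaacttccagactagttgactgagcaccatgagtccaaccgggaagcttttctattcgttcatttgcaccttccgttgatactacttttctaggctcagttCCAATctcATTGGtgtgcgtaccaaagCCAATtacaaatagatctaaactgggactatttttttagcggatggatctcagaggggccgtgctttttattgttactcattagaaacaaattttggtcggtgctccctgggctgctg
COL4A5, 250 bases before its start, chrX:108439588-108439837, plus strand: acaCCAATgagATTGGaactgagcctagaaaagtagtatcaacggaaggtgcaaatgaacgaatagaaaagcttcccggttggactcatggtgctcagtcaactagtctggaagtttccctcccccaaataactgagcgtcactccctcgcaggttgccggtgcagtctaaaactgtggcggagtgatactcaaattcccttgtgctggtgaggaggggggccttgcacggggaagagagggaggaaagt
LAMB3, 250 bases before the first of 3 listed starts, chr1:209652426-209652675, minus strand: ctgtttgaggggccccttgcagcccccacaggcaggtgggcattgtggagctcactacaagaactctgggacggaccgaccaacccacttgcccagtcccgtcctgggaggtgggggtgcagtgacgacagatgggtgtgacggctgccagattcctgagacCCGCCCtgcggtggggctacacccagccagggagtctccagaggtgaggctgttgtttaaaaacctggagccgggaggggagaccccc
COL15A1, 250 bases before its start, chr9:98943657-98943906, plus strand: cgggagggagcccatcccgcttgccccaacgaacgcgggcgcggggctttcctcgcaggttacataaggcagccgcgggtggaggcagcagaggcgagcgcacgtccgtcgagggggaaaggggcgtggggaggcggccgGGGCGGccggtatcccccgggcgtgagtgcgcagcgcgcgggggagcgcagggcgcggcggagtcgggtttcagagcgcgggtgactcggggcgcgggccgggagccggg
The stretch between COL4A1 and COL4A2 was 80.2% G and C and held 1 CCAAT, its first base 105 bases before the COL4A2 start, and 1 GC box at 65 bases. The COL4A5 and COL4A6 sequences overlap, were 51.2% and 44% G and C, and held CCAAT with no GC box. The LAMB3 and COL15A1 sequences held 1 GC box each and no CCAAT. Among all 27305 RefSeq windows, reaching from 250 bases before a start to 50 bases after it, 35.7% held CCAAT, 44.6% the GC box and 12% TATAAA. Of the 58 members with a window, 14 held CCAAT, 33 the GC box and 6 TATAAA. A match is a description of these letters and not a binding site.

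A gene was tested when its mean reached 1 FPKM in at least 1 group. Of the 81 members 36 passed, namely 16 collagens, 8 laminins, 11 integrin subunits and ITGB3BP, and 45 did not. The highest value of a member left out was 1.04 FPKM, and 12 of the 45 never had over 3 fragments in a library. Log2 fold changes are on the scale of log2(FPKM + 1), which understates changes of low genes, and come with a standard error (SE) from a limma fit over all 14363 tested genes. Below, rose and fell mean a false discovery rate (FDR) under 0.05, and a gene is called when its fold change also exceeds 2.

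Si-KDM4C#1 gave 2 called members, COL4A1 up and COL15A1 down, out of 36, beside 4.04% of all tested genes called higher, 4.83% lower and 8.87% in either direction. Si-KDM4C#2 gave 7, COL4A1, COL5A1, COL6A2 and ITGA2B up and ITGAV, ITGB4 and LAMB3 down, beside 2.60% higher, 2.30% lower and 4.89% in either direction. In the direct comparison of Si-KDM4C#2 with Si-KDM4C#1 6 members were called, COL15A1, ITGA2 and ITGA2B higher and ITGAV, ITGB4 and LAMB3 lower, beside 4.41%, 2.49% and 6.91%. With both siRNAs combined against Scramble, COL4A1 and COL6A2 were up and LAMB3 was down, 3 members, beside 2.18%, 1.96% and 4.14%. Both siRNA comparisons share the Scramble libraries, so they are not independent of each other. At FDR < 0.05 alone 17 of the 36 rose and 13 fell with Si-KDM4C#1, beside 65.7% of all genes in either direction. With Si-KDM4C#2 14 rose and 11 fell, beside 59.4%, between the siRNAs 16 were higher and 15 lower, beside 62.4%, and over both siRNAs 16 were higher and 12 lower, beside 32.6% higher, 30.8% lower and 63.4% in either direction. After GC content adjustment 14 rose and 15 fell with Si-KDM4C#1, and 10 rose and 14 fell with Si-KDM4C#2. In bulk RNA, fewer cells of a kind and less RNA per cell cannot be told apart.

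**Figure D1:**
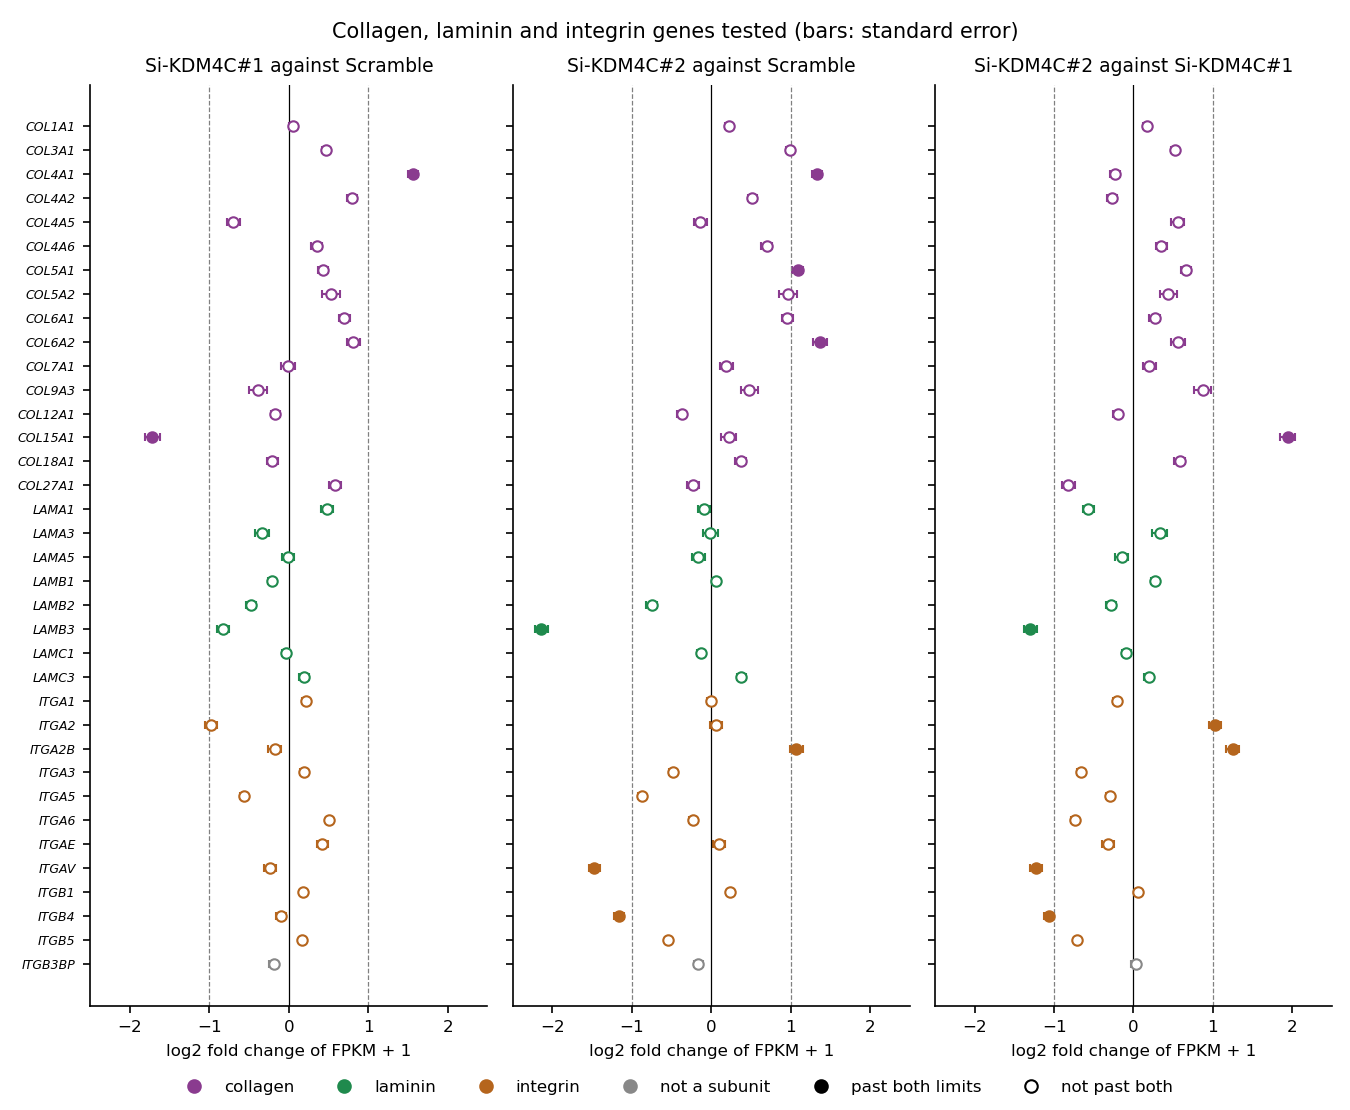
Log2 fold changes (x axis, log2 of FPKM + 1, bars showing the SE) of the 36 tested members (y axis, by family) in 3 comparisons, with filled points past FDR < 0.05 and a fold change > 2 and dashed lines at a log2 value of 1 on either side. COL4A1 lies beyond the line with both siRNAs, at 1.56 and 1.33, while COL15A1 (-1.72) does so only in the Si-KDM4C#1 panel and LAMB3 (-2.14), ITGAV (-1.47) and ITGB4 (-1.16) only in the Si-KDM4C#2 panel among the comparisons with Scramble.

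Among the tested collagens more rose than fell with both siRNAs. At FDR < 0.05 alone 9 of 16 rose and 5 fell with Si-KDM4C#1, and 11 rose and 2 fell with Si-KDM4C#2. Of all tested genes 31.7% rose and 33.9% fell with Si-KDM4C#1, and 34.4% rose and 25.0% fell with Si-KDM4C#2. The median log2 fold change of the tested collagens was 0.39 and 0.5, beside -0.03 and 0.06 over all genes, and came to 0.24 and 0.14 after GC content adjustment of each library. The split was then 9 up and 6 down with Si-KDM4C#1 and 8 up and 4 down with Si-KDM4C#2. The fibrillar group, the type IV group and the type VI group held most of the collagens that rose. COL5A2, one of those that rose, averaged 0.617 FPKM in Scramble and passed the expression limit only through the siRNA groups. Of the collagens under that limit, limma voom on recovered fragments called COL10A1 and COL16A1 lower and COL9A2 higher with both siRNAs. The counts above leave them out.

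COL4A1 (ENSG00000187498), which encodes a ubiquitous chain of basement membrane collagen, was the one member called upward with both siRNAs in the limma fit on FPKM. In GRCh38 it spans chromosome 13, 110148963 to 110307233, minus strand. Its FPKM was 2.02, 1.67 and 1.95 in Scramble, 7.47, 7.75 and 7.18 with Si-KDM4C#1, and 6.48, 6.12 and 6.08 under Si-KDM4C#2. All knockdown libraries lay above all Scramble libraries, and the libraries of Si-KDM4C#1 above those of Si-KDM4C#2. In limma the log2 fold change was 1.56 (SE 0.0613, adjusted p = 4.15e-08) with Si-KDM4C#1 and 1.33 (SE 0.0613, adjusted p = 1.93e-07) with Si-KDM4C#2, and the siRNAs differed by -0.23 (adjusted p = 0.00897).

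COL4A2 (chromosome 13, 110305812 to 110513209, plus strand) encodes the partner chain with which COL4A1 forms the usual type IV trimer. It stood at 15.1, 12.5 and 14.3 FPKM in Scramble, 25.3, 25.3 and 23.9 with Si-KDM4C#1, and 20.2, 21 and 19.9 under Si-KDM4C#2, so that it was the more abundant chain in every library. It rose without reaching a 2-fold change, by 0.79 (SE 0.0624, adjusted p = 2.94e-06) and 0.52 (SE 0.0624, adjusted p = 7.45e-05) on the log2 scale in limma. Both genes of the pair thus rose with both siRNAs, COL4A1 by more. The FPKM ratio of COL4A2 to COL4A1 was 7.43 ± 0.0971 (SD, n = 3) in Scramble, 3.32 ± 0.061 under Si-KDM4C#1 and 3.28 ± 0.158 under Si-KDM4C#2, with no overlap between Scramble and either siRNA. The FPKM of COL4A1 and COL4A2 did not convert to whole fragments with the GENCODE exon lengths, so the length behind these levels, and the ratio between the genes, is less certain than its movement between groups.

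The COL4A5 and COL4A6 pair, chains of a more restricted type IV network, moved in opposite directions with Si-KDM4C#1. COL4A5 was at 14, 12.7 and 12.3 FPKM in Scramble, 8.39, 8.01 and 6.51 with Si-KDM4C#1, and 11.6, 11.9 and 11.5 under Si-KDM4C#2. It fell with Si-KDM4C#1 (log2 fold change -0.7, SE 0.0815, adjusted p = 4.39e-05, limma) and not with Si-KDM4C#2 (-0.14, adjusted p = 0.167). With voom on recovered fragments it also fell with Si-KDM4C#2 (-0.21, adjusted p = 0.00251). COL4A6 was at 1.4, 1.38 and 1.39 FPKM in Scramble, 1.94, 1.92 and 2.29 with Si-KDM4C#1, and 2.9, 2.94 and 2.8 under Si-KDM4C#2, and it rose by 0.35 (adjusted p = 0.00173) and 0.7 (adjusted p = 2.57e-05). Within this pair the ratio of COL4A5 to COL4A6 went from 9.34 ± 0.597 to 3.78 ± 0.813 and 4.05 ± 0.0567. COL4A3 and COL4A4, the remaining pair, stayed under 1 FPKM in every library.

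Among the 5 tested fibrillar collagens, COL3A1, COL5A1 and COL5A2 rose with both siRNAs and were highest with Si-KDM4C#2, while COL1A1 passed with Si-KDM4C#2 alone (-0.05 after GC content adjustment) and COL27A1 fell with it. COL5A1 (ENSG00000130635, chromosome 9, 134641774 to 134844843, plus strand), whose chain starts and limits the growth of collagen fibrils, was at 18, 17.1 and 18.4 FPKM in Scramble. It reached 25.8, 26 and 21.6 with Si-KDM4C#1 and 39.7, 38.6 and 38.8 under Si-KDM4C#2. The 3 groups did not overlap, and their order was Scramble, Si-KDM4C#1, Si-KDM4C#2. Its log2 fold change with Si-KDM4C#2 was 1.09 (SE 0.0663, adjusted p = 9.9e-07, limma) and with Si-KDM4C#1 0.43 (SE 0.0663, adjusted p = 0.000283). The call with Si-KDM4C#2 was lost after quantile normalization (0.99) and after GC content adjustment (0.83).

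COL3A1, a main chain of reticular fibers and the second most abundant collagen in Scramble, came close to a call. Its FPKM was 27.4, 26.2 and 29 in Scramble, 38.9, 39.8 and 36.7 with Si-KDM4C#1, and 56.3, 56.1 and 54.2 under Si-KDM4C#2, again without overlap. The log2 fold change was 0.47 (SE 0.0464, adjusted p = 1.38e-05) and 0.99 (SE 0.0464, adjusted p = 2.09e-07) in limma. COL5A2, the usual partner of COL5A1, rose in the same order from 0.617 ± 0.177 (SD, n = 3) to 1.32 ± 0.133 and 2.16 ± 0.224 FPKM, on 46 to 268 fragments per library. Its log2 fold changes of 0.53 (adjusted p = 0.00198) and 0.97 (adjusted p = 4.97e-05) in limma were not called, but became 1.19 and 1.76 with voom on recovered fragments and 1.02 and 1.69 with a pseudocount of 0.1, past the fold limit in each. COL27A1, a collagen of cartilage, rose with Si-KDM4C#1 (0.58, adjusted p = 0.000116) and fell with Si-KDM4C#2 (-0.23, adjusted p = 0.027).

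COL1A1, a chain of the most common fibrillar collagen, differed little between groups, at 14.8 ± 0.875, 15.4 ± 0.399 and 17.5 ± 0.503 FPKM. Its log2 fold change with Si-KDM4C#2, 0.22 (adjusted p = 0.00279, limma), was -0.05 after GC content adjustment, and that with Si-KDM4C#1 went from 0.05 to -0.17. COL1A2, which encodes the partner chain of the usual type I heterotrimer, was detected by 1 fragment in each of 2 libraries and by none in the other 7. In no library did COL1A2 exceed 0.00578 FPKM. COL1A1, COL1A2, COL4A5, COL4A6, COL5A2 and COL27A1, and below COL7A1, COL9A3, COL18A1, ITGA1 and LAMC3, were picked for description after their values were seen.

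Type VI collagen rose in 2 of its 3 classical chains. COL6A2 (ENSG00000142173, chromosome 21, 46098097 to 46132849, plus strand) was at 2.99, 2.71 and 3.49 FPKM in Scramble, 6.69, 6.23 and 5.41 with Si-KDM4C#1, and 9.31, 9.38 and 9.63 under Si-KDM4C#2. COL6A1 was at 6.61, 5.6 and 6.54, then 11.1, 11.1 and 10, then 13.7, 13.3 and 12.4 FPKM. For both genes the groups did not overlap and Si-KDM4C#2 was highest. COL6A2 had a log2 fold change of 1.37 (SE 0.0839, adjusted p = 1.04e-06, limma) with Si-KDM4C#2 and 0.81 (SE 0.0839, adjusted p = 1.94e-05) with Si-KDM4C#1. COL6A1 had 0.96 (SE 0.0686, adjusted p = 2.51e-06) and 0.7 (SE 0.0686, adjusted p = 1.33e-05). The COL6A2 call with Si-KDM4C#2 was lost after GC content adjustment (0.96). Its call over both siRNAs, 1.09 (adjusted p = 1.25e-06), was lost as well (0.72). With voom on recovered fragments COL6A2 was also called with Si-KDM4C#1 (1.06), and COL6A1 was called with Si-KDM4C#2 (1.01). COL6A3, the third chain, had 5 fragments in 2 libraries together and none in the other 7.

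COL15A1 (ENSG00000204291, chromosome 9, 98943179 to 99070792, plus strand), a chain of a collagen that lies beside basement membranes, was called with Si-KDM4C#1 alone. Scramble libraries held 13.8, 13.2 and 12.6 FPKM, Si-KDM4C#1 libraries 2.88, 4.05 and 3.12, and Si-KDM4C#2 libraries 14.7, 16.4 and 15.7. All Si-KDM4C#1 libraries lay below every other library. In limma the log2 fold change was -1.72 (SE 0.0911, adjusted p = 2.3e-07) with Si-KDM4C#1 and 0.22 (SE 0.0911, adjusted p = 0.0613) with Si-KDM4C#2, and the siRNAs differed by 1.94 (SE 0.0911, adjusted p = 1.57e-07). With voom on recovered fragments COL15A1 rose with Si-KDM4C#2 by 0.17 (adjusted p = 0.0219).

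The related COL18A1, the precursor of endostatin, fell with Si-KDM4C#1 (-0.21, adjusted p = 0.0248) and rose with Si-KDM4C#2 (0.37, adjusted p = 0.00136; -0.05 after GC content adjustment), as did COL9A3 (-0.39, adjusted p = 0.0106, and 0.48, adjusted p = 0.0037; the latter 0.06 after that adjustment) in limma. Of the exon bases of COL18A1 16.4% also belong to SLC19A1 on the other strand. The sources used here do not say whether counting used strand, so reads of these genes may not be told apart. COL12A1, a collagen on the surface of fibrils and the most abundant one in Scramble, fell with both. It was at 50, 50.9 and 48.3 FPKM in Scramble, 46.6, 45.7 and 40.1 with Si-KDM4C#1, and 39.8, 37.7 and 37.5 under Si-KDM4C#2. The log2 fold changes were -0.17 (adjusted p = 0.0221) and -0.37 (adjusted p = 0.000353), under the 2-fold limit. COL7A1, the anchoring fibril collagen, passed the test with neither siRNA.

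Fibrillar and type VI collagens are also made by fibroblasts, whose markers were checked as a list. Their summed level was 9.63 to 10.7 FPKM in Scramble, 4.78 to 6.12 with Si-KDM4C#1 and 7.33 to 9.13 with Si-KDM4C#2. Of the 9 listed fibroblast and stellate cell markers 6 stayed under 1 FPKM in every library, DCN, PDGFRA and POSTN among them, and LUM made up most of the sum. LUM ran from 6.54 to 7.51 FPKM in Scramble, 2.89 to 3.93 with Si-KDM4C#1 and 5.36 to 6.61 with Si-KDM4C#2, the last overlapping Scramble. PDGFRB was lower with both siRNAs, at 1.88 to 2.01 FPKM in Scramble, 0.244 to 0.372 with Si-KDM4C#1 and 0.931 to 1.09 with Si-KDM4C#2. ACTA2 went the other way with Si-KDM4C#1, at 0.899 to 1.54 FPKM against 0.712 to 0.824 in Scramble. The part of these shifts in the collagen values was not tested.

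**Figure D2:**
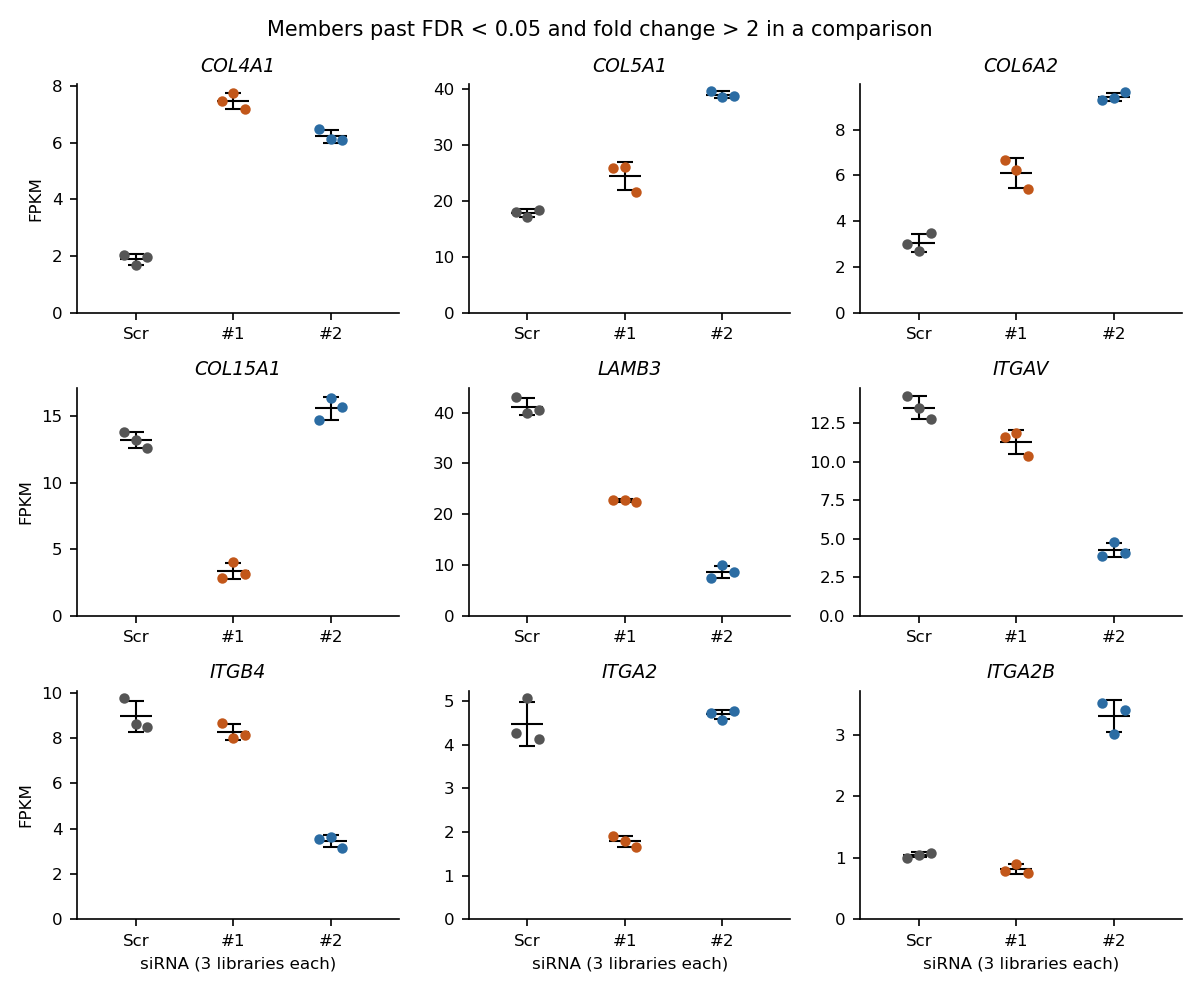
FPKM (y axis, from 0) of the 9 members called in at least 1 comparison, in each library of Scramble (Scr), Si-KDM4C#1 (#1) and Si-KDM4C#2 (#2) on the x axis. Points are libraries and black bars the mean ± SD of 3; COL4A1 is higher with both siRNAs, COL15A1 and ITGA2 are lowest with Si-KDM4C#1, and LAMB3, ITGAV and ITGB4 are lowest with Si-KDM4C#2, LAMB3 falling from 41.2 over 22.7 to 8.64 FPKM.

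LAMB3 had the largest change among the 8 tested laminins with either siRNA. Of these 2 rose and 4 fell with Si-KDM4C#1 at FDR < 0.05 alone, beside 31.7% rising and 33.9% falling over all genes. With Si-KDM4C#2 1 of the 8 rose and 2 fell, beside 34.4% rising and 25.0% falling over all genes. LAMB3 was the one laminin called, with Si-KDM4C#2. After quantile normalization 1 laminin rose and 5 fell with Si-KDM4C#2. After GC content adjustment 1 laminin rose and 5 fell with Si-KDM4C#1, and 0 rose and 4 fell with Si-KDM4C#2. LAMB3 (ENSG00000196878, chromosome 1, 209614870 to 209652466, minus strand) encodes the beta chain of the laminin that anchors epithelia through hemidesmosomes. Its FPKM was 43.1, 39.9 and 40.5 in Scramble, 22.8, 22.8 and 22.4 with Si-KDM4C#1, and 7.42, 9.92 and 8.59 under Si-KDM4C#2. The groups stood apart in this order without overlap. The log2 fold change was -0.83 (SE 0.0808, adjusted p = 1.21e-05, limma) with Si-KDM4C#1 and -2.14 (SE 0.0808, adjusted p = 6.79e-08) with Si-KDM4C#2, and the siRNAs differed by -1.3 (SE 0.0808, adjusted p = 8.03e-07). With GC content adjustment LAMB3 also passed the limit with Si-KDM4C#1 (-1.01).

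LAMA3, the alpha chain that pairs with LAMB3, was far below it. It was at 1.72, 1.43 and 1.74 FPKM in Scramble, 0.991, 1.19 and 1.06 with Si-KDM4C#1, and 1.79, 1.54 and 1.52 under Si-KDM4C#2, falling with Si-KDM4C#1 (-0.34, adjusted p = 0.00826, limma) and not with Si-KDM4C#2 (-0.01, adjusted p = 0.955). The ratio of LAMB3 to LAMA3 went from 25.4 ± 2.31 (SD, n = 3) in Scramble to 21.1 ± 1.9 and 5.41 ± 1.16.

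The widely expressed laminin chains changed less. LAMA5, the most abundant alpha chain, was at 66.3, 54.9 and 54.8 FPKM in Scramble, 63.4, 56.2 and 54.3 with Si-KDM4C#1, and 53.9, 50.8 and 51.8 under Si-KDM4C#2. LAMC1, the common gamma chain, was at 52.3, 54 and 52.3, then 53.8, 53.4 and 46.8, then 48.3, 47 and 49.2 FPKM. For both genes Si-KDM4C#1 overlapped Scramble, and neither gene passed the test with either siRNA. With voom on recovered fragments both fell with Si-KDM4C#2, LAMA5 with a log2 fold change of -0.23 (adjusted p = 0.000269) and LAMC1 with -0.2 (adjusted p = 0.000562). LAMB2, a beta chain of mature basement membranes, fell with both, from 42.5, 36.1 and 36.6 FPKM to 28.3, 28.2 and 25.4 with Si-KDM4C#1 and 22.7, 22.4 and 21.9 under Si-KDM4C#2. In limma LAMB2 changed by -0.48 (SE 0.0655, adjusted p = 0.000135) and -0.75 (SE 0.0655, adjusted p = 8.97e-06). After GC content adjustment the latter was -1.01 and was called. LAMB1, the beta chain used more in development, fell with Si-KDM4C#1 by less than LAMB2 (-0.21, adjusted p = 0.00367) and was at 0.06 (adjusted p = 0.27) with Si-KDM4C#2. The ratio of LAMB2 to LAMB1 went from 1.89 ± 0.18 to 1.56 ± 0.0579 and 1.05 ± 0.028.

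LAMA1, an alpha chain of early embryonic basement membranes, rose with Si-KDM4C#1. It was at 17.8, 16.3 and 14.4 FPKM in Scramble, 22.7, 24 and 22 with Si-KDM4C#1, and 15.7, 14.5 and 15.1 under Si-KDM4C#2. In limma the log2 fold change was 0.48 (adjusted p = 0.000217) with Si-KDM4C#1 and -0.09 (adjusted p = 0.3) with Si-KDM4C#2, and the difference between the siRNAs was -0.57 (SE 0.0704, adjusted p = 7.84e-05). LAMC3, a gamma chain, rose with both, by 0.19 (adjusted p = 0.0188; -0.1 after GC content adjustment) and 0.38 (adjusted p = 0.000425; 0.03 after that adjustment).

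**Figure D3:**
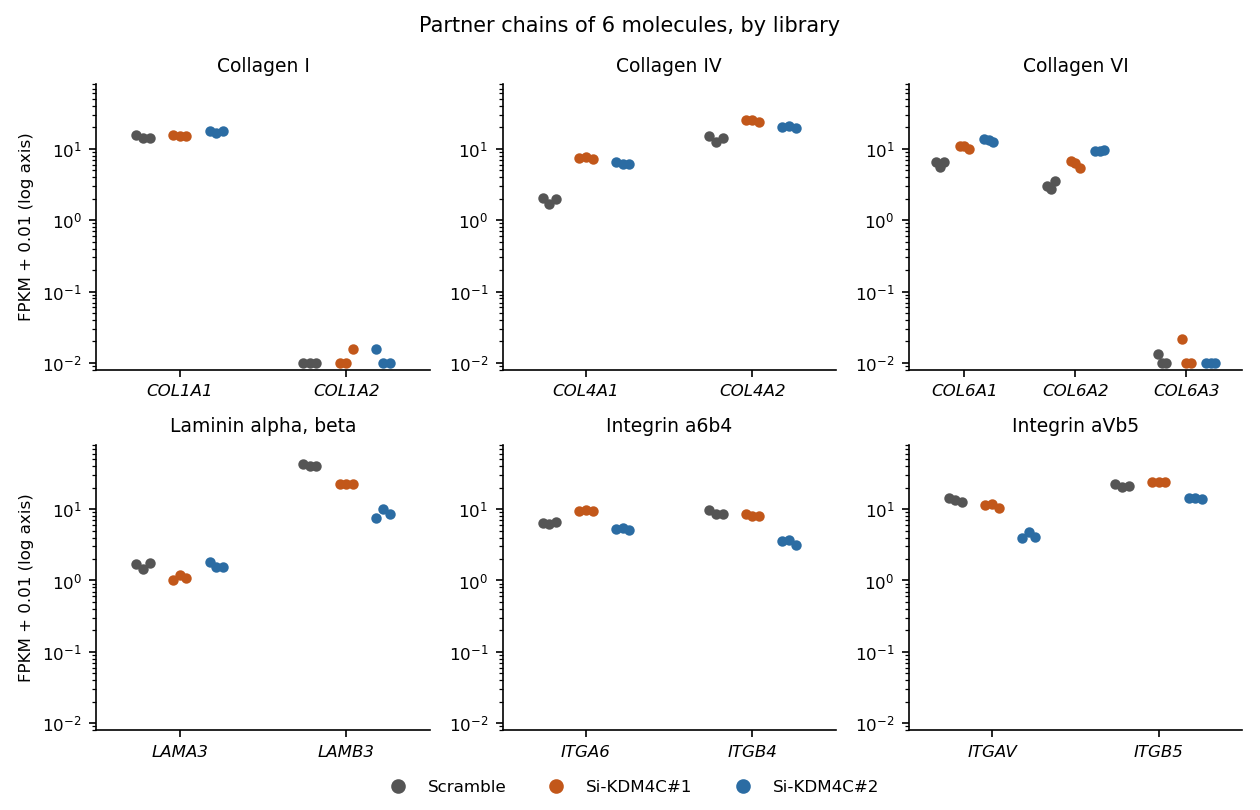
FPKM + 0.01 (y axis, log scale) of partner chains in 6 panels in every library, colored by group, with each chain on the x axis. COL1A2 and COL6A3 sit at the bottom while COL1A1, COL6A1 and COL6A2 are expressed, LAMB3 lies far above LAMA3, and ITGAV and ITGB4 fall with Si-KDM4C#2 by more than their partners ITGB5 and ITGA6.

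More integrin subunits fell than rose with Si-KDM4C#2, and the split with Si-KDM4C#1 depended on the scaling. At FDR < 0.05 alone 6 of 11 rose and 3 fell with Si-KDM4C#1, beside 31.7% rising and 33.9% falling over all genes. With Si-KDM4C#2 2 of the 11 rose and 6 fell, beside 34.4% rising and 25.0% falling over all genes. With Si-KDM4C#1 the split was 3 up and 3 down after quantile normalization and 4 up and 4 down after GC content adjustment. In the direct comparison 2 were higher and 8 lower with Si-KDM4C#2, beside 35.9% higher and 26.5% lower over all genes. The median log2 fold change of the tested subunits was 0.17 with Si-KDM4C#1 (0.01 after quantile normalization) and -0.23 with Si-KDM4C#2. Over all tested genes the medians were -0.03 and 0.06.

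ITGAV (ENSG00000138448, chromosome 2, 186590065 to 186680901, plus strand), the alpha subunit of the vitronectin receptors and of the integrins that activate TGF-beta, fell with Si-KDM4C#2. Its FPKM was 14.3, 13.5 and 12.8 in Scramble, 11.6, 11.9 and 10.4 with Si-KDM4C#1, and 3.92, 4.78 and 4.08 under Si-KDM4C#2. No groups overlapped, and the Si-KDM4C#2 libraries stood far below the others. The log2 fold change was -1.47 (SE 0.0742, adjusted p = 3.27e-07, limma) with Si-KDM4C#2, and the siRNAs differed by -1.23 (SE 0.0742, adjusted p = 6.87e-07). With Si-KDM4C#1 it was -0.24 (adjusted p = 0.0178), which turned to 0.03 after GC content adjustment.

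ITGB5, a beta subunit that pairs with ITGAV, also fell with Si-KDM4C#2. It was at 22.3, 20.5 and 20.8 FPKM in Scramble, 24, 24.2 and 23.7 with Si-KDM4C#1, and 14.3, 14.5 and 14.1 under Si-KDM4C#2, with log2 fold changes of 0.17 (adjusted p = 0.00409; 0.01 after quantile normalization) and -0.54 (SE 0.0394, adjusted p = 2.96e-06, limma). The ratio of ITGB5 to ITGAV rose from 1.57 ± 0.052 (SD, n = 3) to 2.12 ± 0.13 and 3.38 ± 0.321. ITGAV also pairs with ITGB1, described below. Its partner ITGB8 was at 0.4 to 0.707 FPKM on average, and ITGB3 and ITGB6 had at most 8 and 9 fragments in a library.

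ITGB4 and ITGA6 form the laminin receptor of hemidesmosomes, and ITGB4 pairs with no other alpha subunit. ITGB4 (ENSG00000132470, chromosome 17, 75721328 to 75757818, plus strand) was at 9.76, 8.64 and 8.51 FPKM in Scramble, 8.67, 8.02 and 8.12 with Si-KDM4C#1, and 3.52, 3.65 and 3.16 under Si-KDM4C#2. Scramble and Si-KDM4C#1 overlapped, and all Si-KDM4C#2 libraries were below both. Its log2 fold change was -1.16 (SE 0.0652, adjusted p = 5.92e-07, limma) with Si-KDM4C#2 and -0.1 (SE 0.0652, adjusted p = 0.191) with Si-KDM4C#1, a difference of -1.06 (SE 0.0652, adjusted p = 7.62e-07). ITGA6 was at 6.45, 6.15 and 6.67, then 9.37, 9.76 and 9.48, then 5.31, 5.52 and 5.16 FPKM, rising with Si-KDM4C#1 (0.51, adjusted p = 8.2e-06) and falling with Si-KDM4C#2 (-0.23, adjusted p = 0.00203). The ratio of ITGA6 to ITGB4 went from 0.719 ± 0.0619 to 1.15 ± 0.0687 and 1.55 ± 0.0693. LAMB3 and ITGB4, which meet in hemidesmosomes as ligand chain and receptor subunit, were both called lower with Si-KDM4C#2. They were set side by side after their values were seen. Their partner chains LAMA3 (-0.01, adjusted p = 0.955, limma) and ITGA6 (-0.23) were not called with Si-KDM4C#2, and a joint change of hemidesmosome genes was not tested.

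ITGA2 (ENSG00000164171, chromosome 5, 52989326 to 53094779, plus strand), the alpha subunit of a collagen receptor with ITGB1, was low with Si-KDM4C#1. It was at 4.27, 5.07 and 4.13 FPKM in Scramble, 1.9, 1.8 and 1.66 with Si-KDM4C#1, and 4.74, 4.58 and 4.78 under Si-KDM4C#2. Si-KDM4C#1 lay below all other libraries while Si-KDM4C#2 overlapped Scramble. The log2 fold change with Si-KDM4C#1 was -0.98 (SE 0.0733, adjusted p = 2.11e-06, limma), just under the fold limit (-1.26 with voom on recovered fragments), and that between the siRNAs 1.03 (SE 0.0733, adjusted p = 1.86e-06). The latter call was lost after quantile normalization and after GC content adjustment (0.89 in both). ITGA1, another collagen receptor subunit, rose with Si-KDM4C#1 by 0.21 (adjusted p = 0.00407).

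ITGA2B (ENSG00000005961, chromosome 17, 44372180 to 44389505, minus strand), the alpha subunit of the platelet fibrinogen receptor, was called with Si-KDM4C#2. It stood at 1, 1.05 and 1.08 FPKM in Scramble, 0.778, 0.901 and 0.751 with Si-KDM4C#1, and 3.51, 3.01 and 3.4 under Si-KDM4C#2, on 67 to 322 fragments per library. In limma the log2 fold change was 1.07 (SE 0.0824, adjusted p = 4.02e-06) with Si-KDM4C#2 and the siRNAs differed by 1.25 (SE 0.0824, adjusted p = 1.18e-06). After GC content adjustment the first was 0.79 and no longer called. Its only beta partner, ITGB3, had 8 fragments at most.

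ITGB1 and its partners ITGA5 and ITGA3 changed by less than 2-fold in the reported fit, unlike ITGAV, described above, which also pairs with ITGB1. ITGB1, the common beta subunit and the most abundant member, was at 98, 104 and 106 FPKM in Scramble, 119, 117 and 114 with Si-KDM4C#1, and 119, 123 and 124 under Si-KDM4C#2, rising by 0.18 (adjusted p = 0.00253; 0.01 after quantile normalization) and 0.24 (adjusted p = 0.000465) in limma. Its pseudogene ITGB1P1 was listed at 44.1 to 55.1 FPKM, and fragments may be shared between them, so the level of ITGB1 is uncertain. ITGA5, the alpha subunit of the fibronectin receptor, fell with both siRNAs from 44, 40.4 and 40.5 FPKM to 28.9, 27.5 and 26.8, and to 21.9, 22.2 and 23. The log2 fold changes of ITGA5 were -0.57 (SE 0.0456, adjusted p = 3.22e-06) and -0.87 (SE 0.0456, adjusted p = 4e-07), with no overlap between groups. After GC content adjustment the latter was -1.01 and was called. ITGA3, a laminin receptor subunit, was at 23.2, 20.4 and 21.4, then 25, 25.2 and 24, then 15.7, 14.8 and 15.3 FPKM. It fell with Si-KDM4C#2 (-0.48, adjusted p = 3.09e-05), while its rise with Si-KDM4C#1 (0.19, adjusted p = 0.00878) turned to -0.04 after GC content adjustment.

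Across all families 10 members rose with both siRNAs at FDR < 0.05 alone, 8 of them collagens, and 6 fell with both (COL12A1, ITGA5, ITGAV, ITGB3BP, LAMB2 and LAMB3). Another 6 moved in opposite directions, COL27A1, ITGA3, ITGA6 and ITGB5 up under the first siRNA and down under the second, and COL18A1 and COL9A3 the reverse. The share of all tested genes in each of these classes was not computed. Singly, 31.7% of all tested genes rose and 33.9% fell with Si-KDM4C#1, and 34.4% rose and 25.0% fell with Si-KDM4C#2. Both comparisons share the Scramble libraries, so the joint counts are not read as a trait of the members. Several small changes among the tested members did not pass after quantile normalization or GC content adjustment. With Si-KDM4C#1 these were COL12A1, COL18A1, ITGA3, ITGAV, ITGB1, ITGB3BP, ITGB5, LAMA3 and LAMC3, and with Si-KDM4C#2 they were COL18A1, COL1A1, COL9A3, ITGB3BP and LAMC3. COL7A1, LAMA5 and LAMC1 passed the limma test on FPKM with neither siRNA.

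The members below the expression limit were compared with limma voom on recovered fragments, for which 18 of the 45 had enough fragments. With Si-KDM4C#1 4 were called higher and 5 lower (COL17A1, COL25A1, COL5A3 and COL9A2, and COL10A1, COL16A1, ITGA7, ITGB2 and LAMA2), beside 7.51% of 16012 genes called higher and 11.4% lower. With Si-KDM4C#2 1 was called higher, COL9A2, and 2 lower, COL10A1 and COL16A1, beside 5.46% higher and 7.00% lower. Between the siRNAs 3 were higher and 4 lower with Si-KDM4C#2, beside 9.67% and 6.36%, and over both siRNAs 2 were higher and 3 lower, beside 4.56% and 6.79%. COL10A1, the collagen of hypertrophic cartilage, had 168 fragments in the 3 Scramble libraries, 27 with Si-KDM4C#1 and 29 with Si-KDM4C#2, a voom log2 fold change of -2.66 (SE 0.412, adjusted p = 6.22e-07) and -2.73 (SE 0.405, adjusted p = 3.91e-07). COL16A1 had 374, 95 and 162 fragments (-1.94, adjusted p = 8.26e-08, and -1.25, adjusted p = 1.12e-05, voom). ITGB2, the beta subunit of leukocyte integrins, had 256, 66 and 137 fragments. Its leukocyte alpha partners ITGAL, ITGAM and ITGAX had at most 3 fragments in a library, and ITGAD had at most 10.

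COL25A1 and COL5A3 were called higher with Si-KDM4C#1 and not with Si-KDM4C#2. COL25A1, a transmembrane collagen, had 6, 69 and 7 fragments, and COL5A3 had 23, 107 and 10, and the siRNAs differed by -3.08 (adjusted p = 4.82e-05) and -3.57 (adjusted p = 6.09e-06, voom). COL4A4 had 252, 416 and 156 fragments and differed between the siRNAs by -1.53 (adjusted p = 2.38e-08, voom). These genes were singled out after their values were seen, and all rest on under 1.1 FPKM.

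The genes that make, partner or sense these proteins were taken from lists. Of 22 tested collagen processing genes 1 was called up and 2 down with Si-KDM4C#1, and 0 up and 3 down with Si-KDM4C#2, beside 8.87% and 4.89% of all tested genes called in either direction. At an FDR under 0.05 alone 6 of the 22 rose and 11 fell with Si-KDM4C#1, beside 31.7% rising and 33.9% falling over all genes. With Si-KDM4C#2 5 rose and 11 fell, beside 34.4% rising and 25.0% falling over all genes. PLOD2, the lysyl hydroxylase of the collagen telopeptides, fell from 92.2 ± 4.7 FPKM (SD, n = 3) to 25.4 ± 1.49 with Si-KDM4C#1 (log2 fold change -1.82, adjusted p = 1.21e-08, limma) and 41.7 ± 1.7 with Si-KDM4C#2 (-1.12, adjusted p = 2.47e-07). TLL1, a protease that trims procollagen, fell with both (-1.48, adjusted p = 1.75e-07, and -1.19, adjusted p = 1.19e-06). LOX, which cross-links collagen, was called with Si-KDM4C#2 (-1.17, adjusted p = 4.96e-07). COLGALT1, which adds galactose to collagen hydroxylysines, was called upward with Si-KDM4C#1 (1.21, adjusted p = 3.47e-08).

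Of 13 basement membrane and matrix partners, VTN and FN1, the ligands vitronectin and fibronectin, were called down with both siRNAs. Over all tested genes 4.83% were called lower with Si-KDM4C#1 and 2.30% with Si-KDM4C#2. FN1 went from 2.79 ± 0.228 FPKM to 0.875 ± 0.159 and 0.869 ± 0.0789 (SD, n = 3), a log2 fold change of -1.02 in each case (adjusted p = 1.04e-05 and 1.58e-05, limma). EFEMP1, a fibulin, was called up with Si-KDM4C#1 (1.07, adjusted p = 2.09e-07). Among 12 other matrix receptors SDC1 and SDC4, heparan sulfate syndecans, were called up with Si-KDM4C#1 (1.64, adjusted p = 2.95e-08, and 1.44, adjusted p = 2.16e-07), beside 4.04% of all tested genes. None of the 12 was called with Si-KDM4C#2, where 4 rose and 5 fell at FDR < 0.05 alone, beside 34.4% and 25.0% over all genes.

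Of 38 tested genes of the integrin adhesion complex, which ties integrins to actin, 2 were called down with Si-KDM4C#1 and 1 up and 2 down with Si-KDM4C#2, beside 8.87% and 4.89% of all tested genes called in either direction. TNS4, a tensin, fell with both (-1.72, adjusted p = 4.59e-08, and -1.65, adjusted p = 1.11e-07, limma). FERMT2, which activates integrins, was called with Si-KDM4C#1 (-1.08, adjusted p = 1.89e-07). VCL, vinculin, was called down with Si-KDM4C#2 (-1.17, adjusted p = 6.79e-08) and VASP up (1.14, adjusted p = 2.12e-07). Among 19 matrix proteases and inhibitors CTSB was called up with both siRNAs (1.19, adjusted p = 3.62e-08, and 1.08, adjusted p = 1.24e-07). MMP24, a membrane-type matrix metalloproteinase, rose from 1.25 ± 0.239 to 11.1 ± 0.309 FPKM with Si-KDM4C#1 (2.43, adjusted p = 1.75e-08) and stood at 1.23 ± 0.0133 with Si-KDM4C#2. TIMP4, a metalloproteinase inhibitor, was called down with Si-KDM4C#1 (-1.05, adjusted p = 0.000486). The median log2 fold change of the 5 lists lay between -0.36 and 0.29 with Si-KDM4C#1 and between -0.2 and 0.1 with Si-KDM4C#2.

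**Figure D4:**
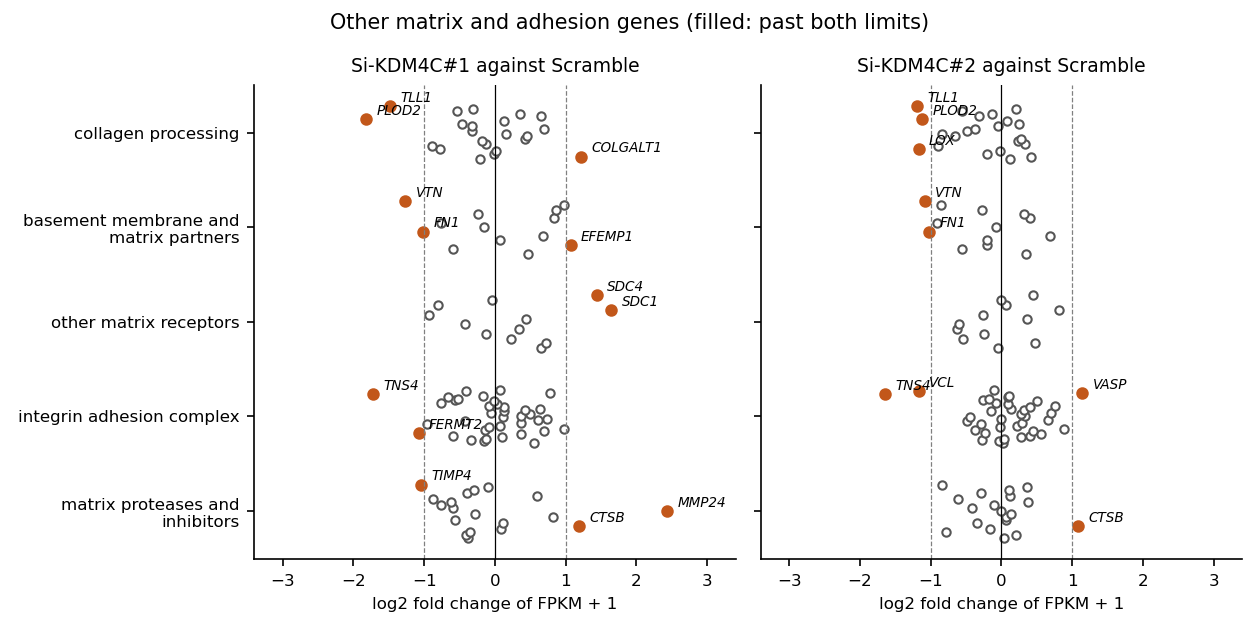
Log2 fold changes (x axis, log2 of FPKM + 1) of the tested genes of the 5 lists (y axis), 1 point per gene, with called genes filled and named and dashed lines at a log2 value of 1 on either side. PLOD2, TLL1, VTN, FN1, TNS4 and CTSB are filled in both panels, while MMP24 (2.43) and the syndecans are filled with Si-KDM4C#1 alone.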

How the data were processed

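Total RNA of 9 libraries was sequenced as paired-end reads on an Illumina NovaSeq, and the authors deposited FPKM values for 32906 genes per library. The submitters' processing notes name FastQC 0.11.5, HISAT2 2.1.0, StringTie 1.3.3b, featureCounts and DESeq 1.28.0 and the build GRCh38, with no role or order. The annotation, the strand setting of the counting and any scaling between libraries are not given in the sources used here. Groups came from the labels. The members and gene lists were chosen with earlier results of these data known.

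The 14363 genes whose mean reached 1 FPKM in any group were compared as log2(FPKM + 1) with limma 3.58.1 (R 4.3.3; empirical Bayes with a trend, 9 libraries in 1 fit, no covariates, Benjamini-Hochberg adjustment over all tested genes, two-sided). A call needed an FDR < 0.05 and a fold change > 2. Multiplying FPKM by GENCODE release 29 exon lengths and a fitted total gave whole fragments, within 0.05, in all libraries for 97.48% of listed genes. For 6 members another exon length gave whole fragments and was used. No library of a group repeated another within sampling noise (chi-square 2.65 to 5.41 per degree of freedom). Same-numbered libraries of different groups did not deviate together, so the numbers were not used as pairs.

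Members are given in full if called, if among the 2 highest in Scramble in their family (collagen, laminin alpha, laminin beta and gamma, integrin alpha, integrin beta), or as partner chains of these. Alternatives were a pseudocount of 0.1, quantile normalization, no filter, at least 1 FPKM in every library, the libraries of a comparison alone, the replicate block, no fold limit, an FDR of 0.01, limma voom on recovered fragments (at least 10 in at least 3 libraries, 16012 genes), a lowess adjustment for GC content (span 0.3), both also with the block, and leaving out each library. On simulated data limma-trend called 169 of 194 genes changed 4-fold for Si-KDM4C#1 against Scramble and 167 of 196 for Si-KDM4C#2 against Scramble, with 3 and 4 false calls among 13286 genes. On the same data limma voom called 191 of 191 and 190 of 190, with 2 and 0 false calls among 13150 genes. Promoter windows are from RefSeq (GRCh38.p14). Python 3.11.15, numpy 2.4.6, pandas 2.3.3 and matplotlib 3.10.9 were used. A member is not reported here.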

Additional observations from a re-analysis of the deposited data

Results flagged for a closer look

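The effects of the siRNAs on 6 of the 36 tested members differed by more than 2-fold at an FDR under 0.05, which is why they are listed here. This was in the direct comparison of Si-KDM4C#2 with Si-KDM4C#1 (limma, 3 libraries each), in which 6.91% of all tested genes were called. COL15A1 was higher under Si-KDM4C#2 by 1.94 on the log2 scale, ITGA2B by 1.25 and ITGA2 by 1.03. LAMB3 differed by -1.3, being lower under Si-KDM4C#2, ITGAV differed by -1.23 and ITGB4 by -1.06. In COL15A1 and ITGA2 the library values of Si-KDM4C#1 lay apart from Scramble, and in ITGA2B, ITGAV and ITGB4 mainly those of Si-KDM4C#2. KDM4C itself differed between the siRNAs by -0.73 and KDM4B by -1.63 in the same comparison; their part in these differences was not tested.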

How the results depend on the processing

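The alternatives were run for the 8 counts of called members and for the named members that were tested, except that the libraries of a comparison alone gave no value for both siRNAs against Scramble. Quantile normalization, no filter, at least 1 FPKM in every library, an FDR of 0.01 and the replicate block left the 8 counts within 1.5 times the reported ones, and the libraries of a comparison alone did so for the 6 counts it was run for. The numbers 1 to 3 did not pair the libraries: the mean correlation of deviations was 0.0162 over 9 same-numbered pairs and -0.00806 over 18 others. With the replicate block, 4 members were called higher and 3 lower with Si-KDM4C#2. For Si-KDM4C#1 against Scramble the counts higher and lower, reported as 1 and 1, were 2 and 2 with a pseudocount of 0.1, 17 and 13 with no fold limit, 7 and 7 with voom, also with the replicate block, and 1 and 2 with GC content adjustment, also with the block. For Si-KDM4C#2 against Scramble, reported as 4 and 3, they were 8 and 3 with a pseudocount of 0.1, 14 and 11 with no fold limit, 7 and 5 with voom (8 and 5 with the replicate block), and 1 and 5 with GC content adjustment, with or without the block. Between the siRNAs, reported as 3 and 3, they were 16 and 15 with no fold limit and 6 and 8 with voom, also with the block. For both siRNAs against Scramble, reported as 2 and 1, they were 16 and 12 with no fold limit, 5 and 4 with voom with or without the replicate block, and 1 higher with GC content adjustment, also with the block. Voom tested more genes, 16012 in place of 14363.

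Leaving out 1 library gave 1 to 2 members lower with Si-KDM4C#1 (2 without Scramble replicate 1, Scramble replicate 3 or Si-KDM4C#1 replicate 1) and 4 to 7 higher with Si-KDM4C#2 (7 without Si-KDM4C#2 replicate 3), and the other 6 counts did not move. These values turned sign. With GC content adjustment, with or without the block, ITGA3 with Si-KDM4C#1 was -0.04, ITGAV with Si-KDM4C#1 0.03, ITGB1 between the siRNAs -0.08, COL1A1 -0.17, -0.05 and -0.11 with Si-KDM4C#1, Si-KDM4C#2 and both, and LAMC3 -0.1 and -0.04 with Si-KDM4C#1 and both. In the same adjustment COL18A1 was -0.05 and -0.3, and COL7A1 -0.18 and -0.24, with Si-KDM4C#2 and both, and COL9A3 was -0.34 and COL27A1 -0.08 over both. Some of these passed FDR < 0.05 as falls in limma, COL1A1 with Si-KDM4C#1 (adjusted p = 0.00145) and both (0.00784) among them. So did COL7A1 with Si-KDM4C#2 (adjusted p = 0.0432, but 0.0655 with the block) and both (0.00463). Over both siRNAs COL18A1 (adjusted p = 0.000243) and COL9A3 (adjusted p = 0.00506) passed as well. With voom, with or without the block, ITGB1 between the siRNAs was -0.06, LAMA5 and COL7A1 with Si-KDM4C#1 0.05, LAMC1 with Si-KDM4C#1 0.02 and ITGA1 with Si-KDM4C#2 -0.06. With quantile normalization LAMA3 was 0.01, LAMB1 -0.05 and ITGA1 -0.03 with Si-KDM4C#2, COL1A1 -0.04 with Si-KDM4C#1 and COL7A1 -0.03 over both. Without 1 library, LAMA3 with Si-KDM4C#2 reached 0.02, LAMA5 with Si-KDM4C#1 0.08, LAMA5 over both siRNAs -0.13 to 0.0, LAMC1 and COL7A1 with Si-KDM4C#1 0.02 and 0.07, ITGA1 with Si-KDM4C#2 -0.01, and COL9A3 over both -0.03 to 0.11. The cause was not tested. Depth limits the members under about 10 fragments.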
